A study of Homo sapiens with 10 samples.

Results

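The genes described here carry retinoic acid signalling: the receptors RARA, RARB and RARG, their heterodimer partners RXRA, RXRB and RXRG, the cytosolic retinoic acid binding proteins CRABP1 and CRABP2, and the clearing enzymes CYP26A1 and CYP26B1. They are 10 of the 19974 protein-coding genes in the RefSeq table used (GRCh38), and they were taken by name. For each gene, every peak that touched the gene body or the 50 kb on either side of it was collected, which gave 688 peaks over the 10 libraries in windows that span 2.04 Mb in all.

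The peaks come from chromatin immunoprecipitation and sequencing (ChIP-seq) of the corepressors RCOR1, RCOR2 and RCOR3 and of LSD1, the histone demethylase they bind, in Kelly cells. Kelly is a human neuroblastoma line with amplified MYCN and an adrenergic identity, per the labels. The 5 groups have 2 libraries each, all labelled with a time of 48 h, and the labels do not say whether these came from separate cultures. RCOR1 and RCOR3 were precipitated with their own antibodies from untreated cells. RCOR2 carried a 3xFLAG tag and was precipitated through it, after 2 µg/mL doxycycline, from cells in which the tagged protein is inducible. The same FLAG antibody on untreated cells of that kind served as background and is called the uninduced control. LSD1 was precipitated from untreated cells of another Kelly derivative, which holds a doxycycline-dependent shRNA against RUNX1T1. Tagged RCOR2 is therefore an added protein, and protein, antibody and cell derivative cannot be told apart where RCOR1, RCOR2, RCOR3 and LSD1 are compared. The induced and uninduced FLAG libraries share the antibody and the kind of cell and differ in doxycycline. Peak lists hold no expression, so the adrenergic label could not be checked against marker levels.

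Retinoic acid enters cells, is carried by CRABP proteins, and is either oxidised by CYP26 enzymes or passed to RAR-RXR heterodimers on DNA. Without ligand these heterodimers hold corepressors, and with ligand they exchange them for coactivators. Their classical binding site is a direct repeat of a short core hexamer, and such repeats lie upstream of RARB and CYP26A1, which are textbook retinoic acid targets. In neuroblastoma, retinoic acid drives differentiation and is used in treatment.

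The windows are read through the following start sequences, which were chosen because they hold the receptor site that the retinoid field knows best (RARB and CYP26A1) or because they lie at the start with the highest RCOR2 enrichment (RXRA), at the strongest RARA start (RARA), or at the only start that RCOR1, RCOR2 and the uninduced control shared (CRABP2). Sequences are from RefSeq, build GRCh38.p14, and are written 5′ to 3′ on the strand of the gene. Capitals in RARB and CYP26A1 mark a direct repeat with a spacer of 5 bases (DR5). Capitals in RXRA and RARA mark GGGCGG, and capitals in CRABP2 mark a single core. RARB is chr3:25428013-25428262 (plus strand, the 250 bases before start 3 of 4). CYP26A1 is chr10:93073797-93073825 (plus strand, before start 2 of 2, where the repeat reads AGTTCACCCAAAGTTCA on the opposite strand). RXRA is chr9:134326205-134326454 (plus strand, the 250 bases before start 1). RARA is chr17:40341916-40342165 (plus strand, the 250 bases before start 3). CRABP2 is chr1:156705785-156706034 (minus strand, the 250 bases before its start).
RARB: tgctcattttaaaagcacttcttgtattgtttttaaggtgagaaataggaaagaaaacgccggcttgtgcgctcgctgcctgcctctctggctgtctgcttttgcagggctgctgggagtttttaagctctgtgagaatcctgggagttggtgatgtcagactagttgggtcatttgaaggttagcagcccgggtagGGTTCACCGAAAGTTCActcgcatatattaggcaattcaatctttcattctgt
CYP26A1: taaagaTGAACTTTGGGTGAACTaattgt
RXRA: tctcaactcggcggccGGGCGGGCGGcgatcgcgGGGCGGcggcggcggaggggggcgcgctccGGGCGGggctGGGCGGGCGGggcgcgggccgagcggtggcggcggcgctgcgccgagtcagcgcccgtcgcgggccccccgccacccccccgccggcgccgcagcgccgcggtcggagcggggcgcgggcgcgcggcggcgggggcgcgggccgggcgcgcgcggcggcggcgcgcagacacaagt
RARA: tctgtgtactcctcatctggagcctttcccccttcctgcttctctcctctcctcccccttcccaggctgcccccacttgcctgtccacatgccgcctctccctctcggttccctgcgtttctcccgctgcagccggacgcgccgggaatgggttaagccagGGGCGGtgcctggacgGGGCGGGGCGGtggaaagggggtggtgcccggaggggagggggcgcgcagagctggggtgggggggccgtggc
CRABP2: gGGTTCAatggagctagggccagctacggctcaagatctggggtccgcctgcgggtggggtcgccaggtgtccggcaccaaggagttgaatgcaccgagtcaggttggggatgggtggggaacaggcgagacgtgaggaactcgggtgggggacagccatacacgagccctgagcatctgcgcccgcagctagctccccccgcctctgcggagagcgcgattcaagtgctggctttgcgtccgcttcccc

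A region below means a stretch with a peak in both libraries of a group, and the fold given for each library is the enrichment over background that the authors' peak caller assigned to the peak. The fold is the authors' value and is used only to describe a peak within its own list. It comes in steps, so that unrelated peaks can share a value. A gene end means 2 kb on either side of a gene's start or finish, and regions of different proteins that overlap by at least 1 bp are counted as a shared site. Sites are built as chains of overlapping regions, so 2 proteins of a site need not overlap each other. The gene table gives bodies and starts but no exons, so no region could be placed in an exon or an intron. Over the genome, each library held between 10253 and 75643 peaks, and read depth is unknown. The 2 libraries of RCOR1 differed most in length, with 49250 and 18297 peaks, and RCOR2 gave 35875 regions, RCOR1 13516, LSD1 12695, RCOR3 7179 and the uninduced control 3151. The windows held 106 RCOR2, 32 RCOR1, 25 RCOR3, 11 LSD1 and 4 uninduced regions.

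RCOR2 had a region in 9 of the 10 windows, against 89.7% of all coding genes, and at the ends of 8 of the 10 genes, against 70.8%. RCOR1 had a region in 6 windows (60.5% of all genes) and at 4 gene ends (30.5%). RCOR3 reached 4 windows (35.6%) and 1 gene end (10.6%), and LSD1 4 windows (32.5%) and 1 gene end (4.17%). The uninduced control reached 2 windows (15.8%) and 1 gene end (5.79%). With only 10 genes, these counts lie near the genome-wide shares, but the genes differed widely among themselves. RARA, RXRA, CRABP1 and CRABP2 had regions of all 4 proteins. RARG and CYP26B1 had RCOR2 and RCOR1 regions, RXRB, RXRG and CYP26A1 had RCOR2 regions alone, and RARB had none.

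**Figure D1:**
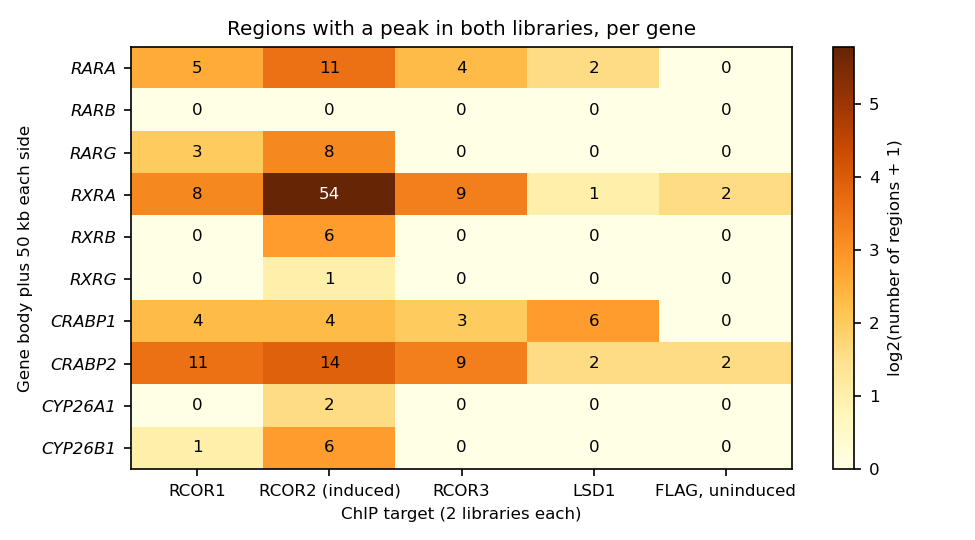
Number of regions (a peak in both libraries) in the window of each gene (rows) for each ChIP target (columns), with colour on a log2(number + 1) scale. RXRA holds 54 RCOR2 regions, the row of RARB is 0 throughout, and the 4 genes RARA, RXRA, CRABP1 and CRABP2 are the rows with LSD1 and RCOR3 regions.

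At the starts themselves, RCOR2 regions overlapped 11 of the 18 RefSeq start windows of the genes (250 bases before to 50 after a start), against 61.4% of all start windows. RCOR1 regions overlapped 3 (23.9%), the uninduced control 1 (3.86%), and RCOR3 and LSD1 0 each (7.06% and 1.41%). The GC content of the 11 windows with RCOR2 ran from 60.0 to 84.0% with a median of 64.7%, and that of the 7 without it from 30.3 to 76.3% with a median of 54.0%. Over all genes the medians were 67.7% (13611 windows) and 51.0% (8545 windows). The part of base composition in where RCOR2 was found was not tested. The RCOR2 regions that overlap a coding start had a median fold of 13.2 in replicate 1 and 24.5 in replicate 2, and RXRA was the only retinoid gene whose start exceeded both values by more than 2-fold.

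**Figure D2:**
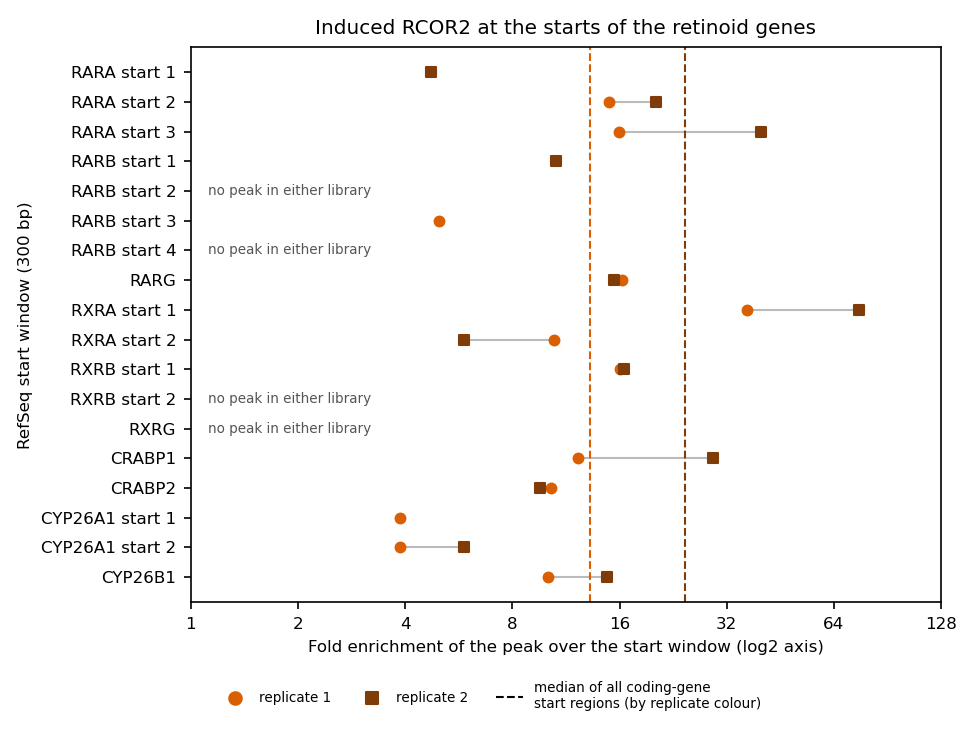
Fold enrichment (log2 axis) of the induced RCOR2 peak over each of the 18 start windows, numbered by position on the chromosome, with replicate 1 as circles and replicate 2 as squares; a missing symbol means no peak in that library. The first RXRA start stands at 36.5 and 75.5, to the right of both dashed genome-wide medians (13.2 and 24.5), whereas CYP26A1 start 2 lies at 3.87 and 5.85, CYP26A1 start 1 has a replicate 1 symbol alone (3.87), and RARB has no start with both symbols.

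RARA encodes the most widely expressed retinoic acid receptor, and its start side was the only member end with an RCOR3 region. Upstream of the gene, at chr17:40306348-40307999, regions of all 4 proteins were joined in 1 site that also lies at the finish of CDC6, a DNA replication gene. There RCOR1 had folds of 11.1 and 7.0 in its 2 libraries, RCOR2 13.0 and 6.25, RCOR3 5.2 and 9.39, and LSD1 5.65 and 4.94. The LSD1 region lay at the upstream edge of the site, more than 2 kb from the first RARA start and without RCOR2 or RCOR3 over it. LSD1 replicate 2 alone had further peaks inside the RCOR2 region (4.56 and 3.06). No uninduced peak lay in any of the regions of this site. A second site of RCOR1, RCOR3 and LSD1 without an RCOR2 region lay further upstream, at chr17:40302977-40304264 by CDC6, with LSD1 folds of 7.17 and 9.25. Each RCOR2 library had a peak within that site (3.98 and 4.38), but the 2 peaks did not overlap.

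RCOR2 regions lay over the internal starts of RARA (2 and 3) and not over the outermost start. Over start 1 a peak was found only in RCOR2 replicate 2 (4.72) and only in RCOR1 replicate 1 (5.59). Over start 2, RCOR2 had folds of 14.9 and 20.2 and RCOR1 of 6.26 and 5.25. Over start 3, whose upstream sequence with 3 GGGCGG matches is printed above, RCOR2 had 15.9 and 39.9, the highest RCOR2 folds at any RARA start in both libraries. RCOR1 was found there only in replicate 1 (4.71), and the region belongs to the RCOR2-high list of the submitters. A peak of 1 uninduced library lay in the RCOR2 regions of starts 2 and 3.

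The strongest RARA region for RCOR1 and RCOR3 was inside the gene, downstream of all starts, at chr17:40349690-40351985. RCOR1 had folds of 12.9 and 10.7, above at least 95.8% of the peaks of either library by score (the −log10 q-value). RCOR3 had 9.89 and 8.83, above at least 90.2%, and was the highest of the 25 RCOR3 regions by that rank, and RCOR2 had 17.3 and 14.7. LSD1 had no region there and a peak in replicate 2 only (3.63), and 1 uninduced library had a peak in the site (5.54). At the finish of the gene only RCOR2 had a region, with folds of 9.95 and 6.54. RCOR1 replicate 1 (7.02) and RCOR3 replicate 2 (4.08) had peaks at the finish without a partner.

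RARB, the receptor gene that retinoic acid itself induces, had no region of any protein in a window of 868.6 kb, the longest of the 10. RCOR2 replicate 2 had a peak of fold 10.6 over the outermost start, at chr3:24829104-24829463, without a partner in replicate 1. RCOR2 replicate 1 had a peak of 4.98 at chr3:25427905-25428092, whose edge lies 118 bp from the DR5 printed above (chr3:25428210-25428226, starting 53 bases before start 3), without a partner in replicate 2. The remaining RCOR2 peak, of replicate 1 and also 4.98, lay further downstream in the gene. RCOR1 replicate 1 had 3 peaks in the window, with folds from 3.28 to 4.97, and LSD1 had 1 peak in replicate 1 and 3 in replicate 2, with folds from 3.77 to 5.81. RCOR1 replicate 2, both RCOR3 libraries and both uninduced libraries had 0. RARB was thus listed only by single-library peaks, and the RCOR2 peak at its best-known start stayed unreplicated and beside the repeat, not over it.

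RARG, a receptor prominent in skin and skeletal development, was reached by RCOR2 and RCOR1 only. Its start region (chr12:53231599-53232507) had RCOR2 folds of 16.3 and 15.4, with RCOR1 found only in replicate 1 (5.03) and a peak of uninduced replicate 2 in it (7.08). A stronger region inside the gene, at chr12:53219924-53222150 and 10059 bp from the start, had RCOR2 folds of 27.9 and 44.9 and RCOR1 folds of 8.05 and 4.33. Neither uninduced library had a peak in it, and it belongs to the RCOR2-high list. The highest RCOR2 region of the RARG window was not at RARG but between CSAD and ZNF740, with folds of 40.7 and 63.9, and RCOR1 was there too with 5.75 and 7.69. Uninduced replicate 2 had a peak in that region as well (4.26). RCOR3 had no region in the window, although replicate 2 had 4 peaks without a partner.

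RXRA encodes the main partner of the RAR proteins, and its window, which holds no other coding gene, had 54 RCOR2 regions in 214.1 kb. This is 25.2 regions per 100 kb, where the median coding gene has 1.94, and only 125 of the 19974 genes have more. The density belongs to a longer stretch: 27 of those 125 genes lie within 5 Mb of RXRA, and the 164 coding genes within that distance have a median of 12.7. Uninduced regions were also frequent in this stretch, with a median of 0.999 per 100 kb where the median over all coding genes is 0. Most of the RXRA regions were weak, with median folds of 6.03 and 5.81 against 8.14 and 9.57 for all RCOR2 regions. Of the 54, 42 were not shared with RCOR1, RCOR3 or LSD1. RCOR1 overlapped 16.7% of the 54 (25.9% of all RCOR2 regions), RCOR3 11.1% (10.9%) and LSD1 1.85% (7.12%). With only the 13644 best peaks of every library, the window held 3 RCOR2 regions. The number of RCOR2 regions over the other 9 windows was 52.

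The start of RXRA was nevertheless among the strongest RCOR2 regions. At chr9:134324454-134327457, a region 3004 bp long, RCOR2 had folds of 36.5 and 75.5, above at least 99.1% of the peaks in either library. RCOR1 had 4.36 and 10.5 in a narrower region just upstream of the start (chr9:134325854-134326258), and 1 uninduced library had a peak in the RCOR2 region. The 250 bases before this start, printed above, hold 6 matches to GGGCGG and are 89.2% G and C. The alternative start inside the gene had RCOR2 folds of 10.5 and 5.85 over the start window, with RCOR1 found in replicate 1 only (4.7).

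Inside and beyond RXRA, 4 sites held 3 proteins. At chr9:134332770-134334651, RCOR1 had folds of 16.8 and 11.0, its highest-ranked region around any of the 10 genes (above at least 96.2% of peaks), with RCOR2 at 13.6 and 5.29 and RCOR3 at 9.3 and 6.65. A smaller site at chr9:134349712-134350956 had RCOR2 at 10.9 and 5.29, RCOR1 at 6.66 and 5.22 and RCOR3 at 6.11 and 4.08. At chr9:134365059-134368671, RCOR2 had 19.4 and 25.5 and RCOR1 14.8 and 5.25, RCOR3 had 3 regions, and both uninduced libraries had a peak. The FLAG signal there was thus seen without induction as well. The only LSD1 region of the window lay past the finish of the gene, at chr9:134449212-134449460, with folds of 3.25 and 4.59, in a site with RCOR1 (10.1 and 7.88) and RCOR2. At the finish itself, RCOR2 had 3 regions with folds between 4.97 and 13.9 over both libraries, and RCOR1 had 6.02 and 4.36.

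**Figure D3:**
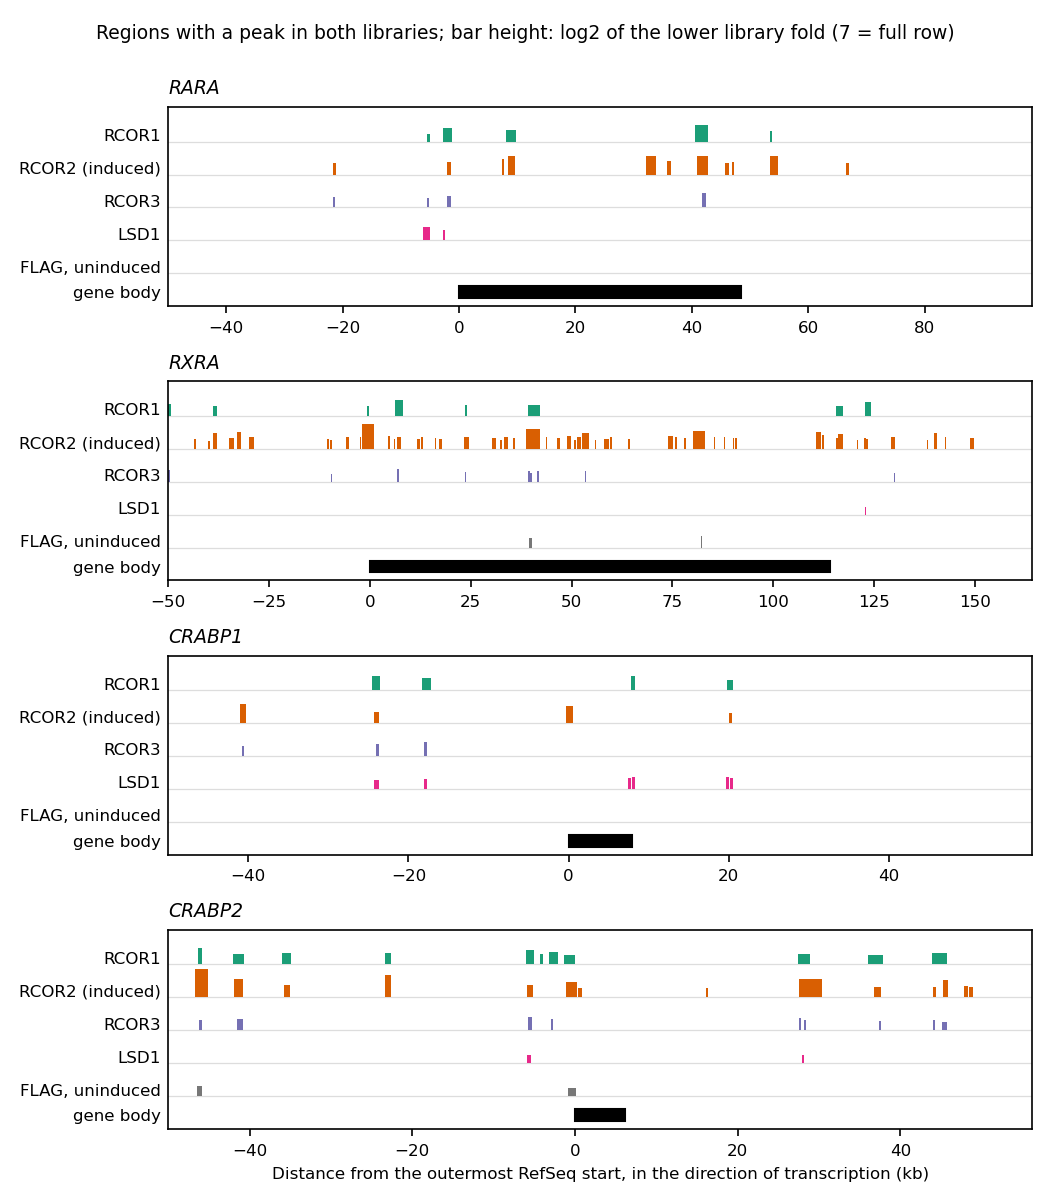
Regions around RARA, RXRA, CRABP1 and CRABP2 by distance (kb) from the outermost RefSeq start in the direction of transcription, with a row for each ChIP target, bar height giving log2 of the lower library fold (a full row is 7) and the gene body in black. RCOR2 covers the RXRA window in many low bars with a tall bar at the start, LSD1 appears outside the gene bodies of RARA, RXRA and CRABP2 and upstream, at the finish and downstream of CRABP1, and sites of several proteins lie upstream of RARA, CRABP1 and CRABP2.

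RXRB, in the major histocompatibility stretch of chromosome 6, was reached by RCOR2 alone. The inner of its 2 starts (chr6:33200075-33200756, shared with an end of SLC39A7) had folds of 16.0 and 16.5. Its finish (chr6:33192235-33192504, shared with COL11A2) had 6.64 and 4.25. The only peak of any other protein in the window was in RCOR3 replicate 2, over the start, with a fold of 4.48. The 190 coding genes at 28 to 34 Mb of chromosome 6 were also short of the other proteins. In their windows 10.0% had an RCOR1 region (60.5% of all coding genes), 2.63% an RCOR3 region (35.6%) and 2.11% an LSD1 region (32.5%). An uninduced region was found for 0% (15.8%). RCOR2 was also below its share over all genes, with 75.3% against 89.7%. Each list also holds peaks on alternate contigs of chromosome 6, up to 584 in RCOR2 replicate 1, which were not used. Their part in the missing regions was not tested.

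RXRG, the partner with the most restricted expression, had no region at its ends or in its body. The only region in its window was RCOR2 at the end of LMX1A, a homeobox gene, 88 kb from the start of RXRG, with folds of 3.96 and 9.46. RCOR1 had 3 peaks in replicate 1 and 0 in replicate 2, and RCOR2 had 2 and 3 further peaks without a partner. RCOR3, LSD1 and the uninduced control had no peak in any library.

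CRABP1, which holds retinoic acid in the cytosol, had the highest LSD1 density of the 10 genes. It had 6 LSD1 regions in 107.9 kb, or 5.56 per 100 kb, and only 55 coding genes have more. It was also the only one with LSD1 at a gene end, and that was the finish. There 2 adjacent LSD1 regions had folds of 4.99 and 6.36 (chr15:78347733-78348111) and of 5.49 and 8.84 (chr15:78348252-78348627), the second of them inside an RCOR1 region with 9.61 and 8.24. RCOR2 and RCOR3 had no region at the finish, where each had a peak in 1 library (4.78 and 5.74). At the start the pattern was the other way round: RCOR2 had folds of 12.2 and 29.2 (chr15:78340070-78340883), RCOR1 had a peak in replicate 1 only (4.03), as did the uninduced control (4.67), and LSD1 and RCOR3 had none.

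A further 3 CRABP1 sites lay between genes and held 3 or 4 proteins each. Upstream, at chr15:78315781-78316772, RCOR1 had folds of 8.05 and 7.86, RCOR2 8.85 and 5.32, RCOR3 5.81 and 5.88, and LSD1 4.26 and 3.65. Nearer the gene, at chr15:78322036-78323203, RCOR1 had 16.0 and 6.2, RCOR3 8.01 and 7.47 and LSD1 4.55 and 5.85. No RCOR2 region lay in that site, only a replicate 1 peak without a partner (3.87). Its LSD1 region was the highest-ranked around the 10 genes (above at least 75.7% of peaks). Downstream, at chr15:78360055-78360858, RCOR1 had 9.39 and 4.36, RCOR2 4.43 and 6.38, and LSD1 2 regions, the stronger with 5.49 and 7.64. No uninduced peak lay in any of these 3 sites, and all of them belong to the RCOR2-low list. LSD1 and RCOR1 thus met at the finish and between genes, and the start carried an RCOR2 region alone.

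CRABP2, which hands retinoic acid to RARA, was the densest window for RCOR1 and RCOR3. It had 11 RCOR1 regions (10.4 per 100 kb, with 18 coding genes higher), 9 RCOR3 regions (8.48 per 100 kb, with 10 genes higher) and 14 RCOR2 regions (13.2 per 100 kb, with 768 genes higher). The window is gene-rich, with 6 other coding genes in 106.2 kb, and 10 of the 14 RCOR2 regions lie at or in them. The RCOR1 lead of CRABP2 depended on how peaks were joined. With 50% reciprocal overlap, CRABP2 held 0 RCOR1 regions, and RARA, RXRA and CRABP1 held 1 each. Its RCOR3 regions then numbered 7, against 3 for RXRA, 2 for RARA and 2 for CRABP1. With peaks above the median score CRABP2 held 5 RCOR1 regions, and with equal numbers of top peaks 7. Both counts were above those of RARA, RXRA and CRABP1. The start (chr1:156705544-156706912) had RCOR2 folds of 10.3 and 9.59 and RCOR1 folds of 8.85 and 4.16. The uninduced control had a region there too, with 3.56 and 6.5, so the FLAG signal at this start was also seen without induction.

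Upstream of CRABP2, a site away from any gene end held all 4 proteins and no uninduced peak, at chr1:156710795-156711783. RCOR1 had folds of 13.5 and 8.27 (above at least 91.8% of peaks), RCOR3 8.83 and 7.61, RCOR2 6.56 and 6.1, and LSD1 3.4 and 3.46. Between this site and the start, RCOR1 and RCOR3 without an RCOR2 region lay at chr1:156707889-156708975, with RCOR1 at 12.8 and 6.2 and RCOR3 at 6.09 and 5.43. RCOR1 was thus higher at the upstream site with all 4 proteins than at the start in both libraries and RCOR2 was lower, and RCOR3 had a peak at the start in replicate 1 only (4.7). The other 4-protein site of the window lay at NES, which encodes nestin, with RCOR2 at 15.6 and 25.9, and both uninduced libraries had a peak in it. The highest RCOR2 region around the 10 genes, 63.1 and 91.4, lay in the body of HDGF, a growth factor gene, and it too held peaks of both uninduced libraries. RCOR1 had 10.5 and 10.6 there, its highest-ranked region of the CRABP2 window (above at least 94.7% of peaks), and RCOR3 had 6.49 and 4.62.

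**Figure D4:**
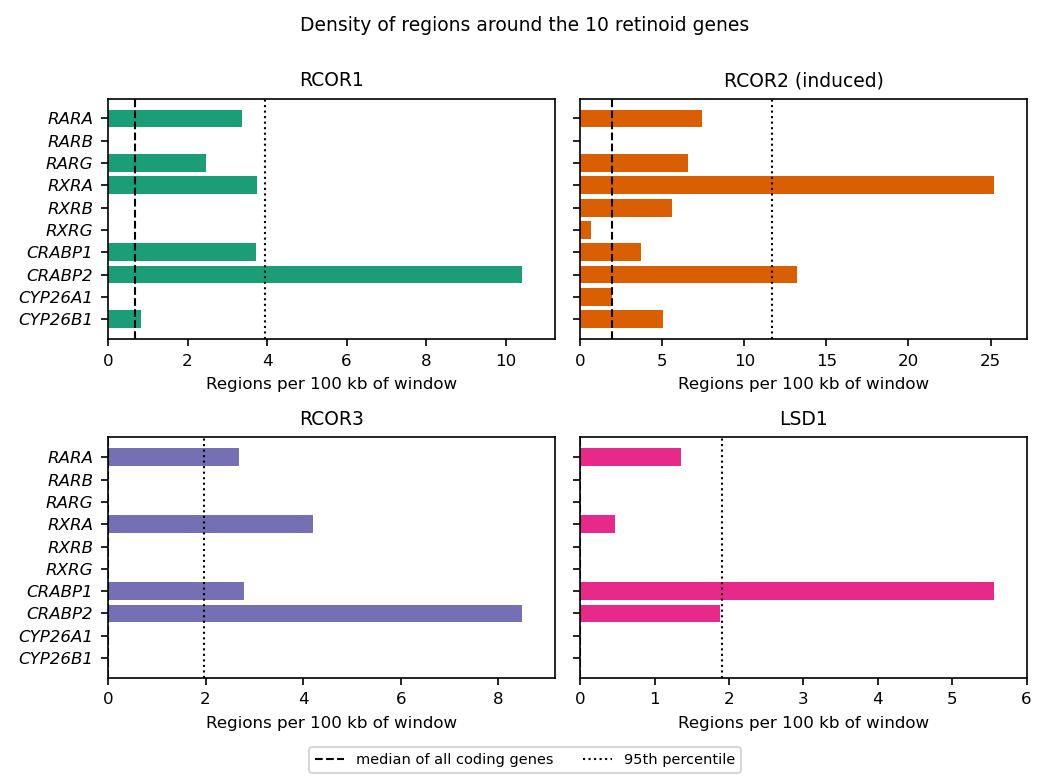
Regions per 100 kb of window for the 10 genes (bars) and each of the 4 proteins (panels, each with its own axis), with the median (dashed) and the 95th percentile (dotted) of all coding genes; the median is 0 for RCOR3 and LSD1. CRABP2 leads for RCOR1 (10.4) and RCOR3 (8.48), RXRA for RCOR2 (25.2) and CRABP1 for LSD1 (5.56).

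CYP26A1, the enzyme that retinoic acid induces to limit itself, had a weak RCOR2 region over start 2, which touched only the last bases of the start 1 window. At chr10:93073517-93074264, folds were 3.87 and 5.85, and replicate 1 ranked above only 6.7% of the peaks of its library. The region spans the DR5 printed above (chr10:93073803-93073819, starting 90 bases before start 2), yet only the peak of replicate 1 lay over the repeat, and that of replicate 2 lay 28 bp from it. The nearest peak of RCOR1, RCOR3, LSD1 or the uninduced control lay 70890 bp from the repeat. The neighbouring CYP26C1, which encodes another enzyme of the family, had an RCOR2 region at its end with folds of 7.19 and 10.6.

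CYP26B1, the clearing enzyme of limb and gonad development, had RCOR2 at its start with folds of 10.1 and 14.8 (chr2:72147142-72148110) and a further weak region upstream with 5.53 and 5.67. In replicate 1 the highest RCOR2 fold of the window was inside the gene, 2377 bp from the start, at chr2:72144402-72145485, where the folds were 15.5 and 12.2. The only RCOR1 region of the window lay there, with 4.36 and 4.73, and RCOR1 replicate 1 had 2 further peaks without a partner (5.37 and 4.36). Neither uninduced library, RCOR3 nor LSD1 had a peak in the window. Both CYP26 genes thus had RCOR2 at the start without LSD1, at folds below the genome-wide median for starts in each library.

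The core hexamer of retinoid receptor sites was searched as AGGTCA or AGTTCA, and also as GGGTCA or else GGTTCA, on both strands of the start windows. It lay in 8 of the 18 windows, against 35.5% of 22156 windows of coding genes. As a direct repeat with a spacer of 5 bases it lay in 2 of the 18, RARB and CYP26A1, and in 17 of all windows (0.0767%). With a spacer of 1 or 2 bases it lay in 0 of the 18 (0.131% and 0.0361% of all). CACGTG, the core of MYC-family sites, lay in 2 (8.34%), CYP26A1 and RARA, and GGGCGG, the core of SP-family sites, in 10 (56.3%). Overlapping matches were counted apart. A match describes letters only, and sequence under the other regions was not analysed here.

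Merged over the 4 proteins, the 10 windows held 110 sites, of which 36 (32.7%) held 2 or more proteins and 4 (3.64%) all 4. Over the genome 27.9% of 46991 sites held 2 or more and 3.23% all 4. RXRA supplied 53 of the 110 sites, and only 11 of these were shared. Without RXRA, 25 of 57 sites (43.9%) held 2 or more proteins and 4 (7.02%) all 4. The 4 sites with all proteins were those upstream of RARA, CRABP1 and CRABP2 and the site at NES, and none of them overlapped a start of the 10 genes. In the RARA site the LSD1 region overlapped RCOR1 only, and at NES it overlapped RCOR1 and RCOR2 but no RCOR3 region.

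Seen from each protein, RCOR1 overlapped 27.4% of the RCOR2 regions around the 10 genes (95% Wilson interval 19.8 to 36.5%, 29 of 106), against 25.9% of all RCOR2 regions. RCOR3 overlapped 17% (11.0 to 25.3%, against 10.9%) and LSD1 4.72% (2.03 to 10.6%, against 7.12%). The share with RCOR1 was 38.5% without RXRA, and it was 17.4% when peaks of RCOR2 replicate 1 alone stood for RCOR2 and 51.9% when those of RCOR1 replicate 1 alone stood for RCOR1. Of the 11 LSD1 regions, 10 overlapped RCOR1 (90.9%, 62.3 to 98.4%), against 41.3% of all LSD1 regions, and the exception was the upstream region of the pair at the CRABP1 finish. The CRABP1 window supplied 6 of these 11 regions. Of the 11, 45.5% lay at a gene end, against 6.07% of all LSD1 regions, and the part of position in the overlap was not tested. Of the 25 RCOR3 regions, 21 overlapped RCOR2 (84.0%, 65.3 to 93.6%, against 56.8%) and 4 overlapped LSD1 (16.0%, 6.4 to 34.7%, against 55.3%). Regions of a window share libraries and neighbours and are not independent, so these intervals cover counting error only.

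**Figure D5:**
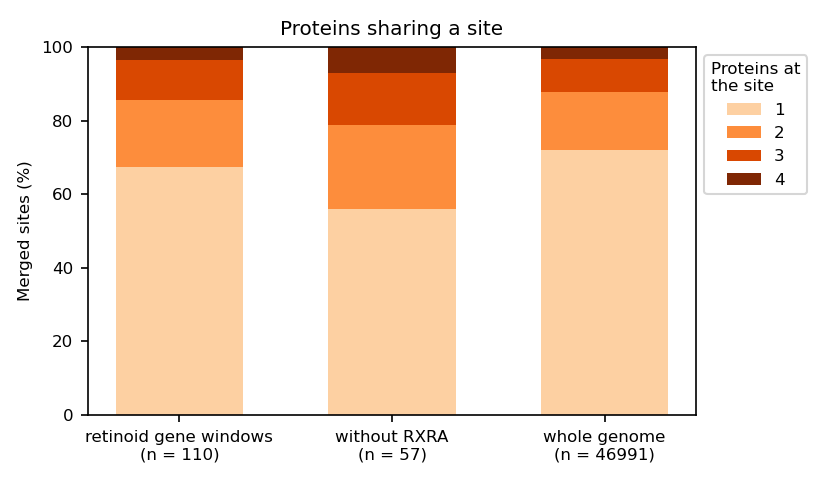
Share (%) of merged sites that hold 1, 2, 3 or 4 of the proteins, in the 10 windows (n = 110), in the windows without RXRA (n = 57) and over the genome (n = 46991). Sites with 2 or more proteins make up 32.7%, 43.9% and 27.9% of the bars.

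Of the 106 RCOR2 regions around the 10 genes, 28 held a peak of an uninduced library (26.4%, 19.0 to 35.5%), against 26.1% over the genome. It also lay in 15 of the 32 RCOR1 regions (46.9%, 30.9 to 63.6%), against 34.0%, and in 1 of the 11 LSD1 regions (9.09%, 1.62 to 37.7%), against 7.15%. Of the RCOR2 regions, 11 overlapped the RCOR2-high list (10.4%, against 18.8% of all RCOR2 regions) and 38 the RCOR2-low list (35.8%, against 23.1%). The other 57 overlapped neither, and 36 of the 57 were in the RXRA window. RCOR2-high covered RXRA start 1, RARA start 3 and a region in the RARG body, and its other regions in the windows lay at or in neighbouring genes. The submitters' definition of the lists was not given in the sources used here. Near the window edges, 9 RCOR2 regions lay within 10 kb inside and 5 within 10 kb outside. RCOR1 had 3 inside and 2 outside, RCOR3 4 inside and 2 outside, LSD1 0 inside and 1 outside, and the uninduced control 1 inside and 0 outside.

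Of 35 further genes of the retinoid pathway, RCOR2 had a region at the ends of 26 (70.8% of all coding genes), RCOR1 of 9 (30.5%), RCOR3 of 4 (10.6%) and LSD1 of 0 (4.17%), and 9 had none of them. These counts lie near the genome-wide shares. Among 12 genes of retinoid synthesis and storage, RCOR2 was at 7 and RCOR1 at 1. Among the highest by rank were the genes of the retinol dehydrogenases RDH11 (18.8 and 37.6) and RDH10 (19.4 and 35.6). STRA6, LRAT, DHRS9, ALDH1A1 and BCO1 had no region of any of the 4 proteins at their ends. The 3 further genes of clearance and carriage all had RCOR2, and FABP5, a fatty acid binding protein that also carries retinoic acid, had 20.5 and 49.4.

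Among 8 coregulators of the receptors, RCOR2 was at 7, RCOR1 at 4 and RCOR3 at 2, against 70.8%, 30.5% and 10.6% of all coding genes. The corepressor gene NCOR1 (18.8 and 45.7) had both RCOR2 and RCOR1, and NCOA3, a coactivator gene (18.7 and 30.8), had RCOR3 as well. Among 12 genes known to respond to retinoic acid, RCOR2 was at 9, RCOR1 at 3 and RCOR3 at 1, against the same shares. RET, a receptor tyrosine kinase gene, and HIC1, a transcriptional repressor gene, both had 17.7 and 45.7, and MEIS2, a homeobox gene, had 38.2 and 35.6 with RCOR1 and RCOR3 beside it. These folds lie above the 3.87 and 5.85 of CYP26A1, and RARB, the other gene with a DR5 at a start, had no RCOR2 region.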

How the data were processed

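Per the submitters' processing notes, the aligner was BWA 0.7.17, the build GRCh38 and the peak caller MACS2. The notes list deepTools too, without versions for the latter 2 tools. The control library, duplicate handling and later filters were not given in the sources used here. Each deposited list holds the peaks of 1 library, not pooled. The fold per peak is the ratio over background that the authors' peak caller assigned. The score is the −log10 q-value in the deposited lists, whose floor lies at a q-value of 0.05, and the −log10 p-value was not used. The deposited RCOR2-high and RCOR2-low lists hold positions only.

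Only chromosomes 1 to 22 and X entered the counts. The peaks of a group's 2 libraries were merged where they overlapped or touched, and merged stretches with a peak of each library were kept as regions. Gene bodies and the 300 bp start windows came from RefSeq tables (GRCh38.p14). A percentile is the rank of a peak's score in its library, and the lower of both libraries is given. Python 3.11.15, pandas 2.3.3, numpy 2.4.6, SciPy 1.17.1 and matplotlib 3.10.9 were used, and the counting was tested on simulated peaks. Read depth is unknown, and 2 libraries against 2 cannot give an exact two-sided p below 0.333, so counts and shares (95% Wilson intervals, counting error only) are described without tests.

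The members and lists were chosen with earlier results of these data known. By rule, all 10 genes, every region at their ends, shared sites or top-ranked regions elsewhere in the windows, and up to 3 genes per role of the 35 further genes are named, and 2 that the rule takes are not reported here. LMX1A, NES, HDGF, STRA6, LRAT, DHRS9, ALDH1A1 and BCO1 were named after their values were seen. Alternatives were 50% reciprocal overlap, peaks above the median score, 13644 top peaks per library, 10 kb flanks, regions without uninduced peaks, each replicate left out and, added after seeing the data, the windows without RXRA.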

Additional observations from a re-analysis of the deposited data

How the results depend on the processing

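The counts of regions depended on how peaks were joined and selected, and RCOR2 had the most under each setting except the one that counts RCOR1 replicate 1 alone (118 for RCOR1, 106 for RCOR2). With 50% reciprocal overlap, RCOR2 regions numbered 66, RCOR3 14 and RCOR1 3, and the shares of RCOR2 regions with RCOR1 and RCOR3 were 0% (0 of 66, which allows up to 4.55%) and 4.55%. With peaks above the median score, regions numbered 45 (RCOR2), 14 (RCOR1), 11 (RCOR3), 5 (LSD1) and 1 (uninduced), and the shares with RCOR1, RCOR3 and LSD1 were 11.1%, 8.89% and 0% (0 of 45, which allows up to 6.67%). With 13644 top peaks per library, RCOR2 fell to 21, RCOR1 to 17 and RCOR3 to 13. With 10 kb flanks, RCOR1 had 18, RCOR3 12 and LSD1 6. Without regions that hold an uninduced peak, RCOR1 had 17 and RCOR3 16, and the share with RCOR1 was 15.4%. Without the RXRA window, RCOR2 had 52, RCOR3 16 and the uninduced control 2, and the share with RCOR1 was 38.5%. Each of these values comes from fewer peaks, regions or genes by construction.

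Leaving out a replicate counts the peaks of the other library: 44 to 118 for RCOR1, 154 to 195 for RCOR2, 45 to 51 for RCOR3, 15 to 20 for LSD1 and 22 to 24 for the uninduced control. The shares of RCOR2 then ran from 17.4 to 51.9% with RCOR1, from 10.8 to 26.4% with RCOR3 and from 3.59 to 7.55% with LSD1. No paired analysis was possible because the results are counts and shares from no test. Read depth is unknown, so a gene with 0 regions, such as RARB, is one without a called region, not one shown to be unbound.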
